A study of Rattus norvegicus with 2 samples.

Results

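Broad basal HMGB2 domains are the stretches of at least 2000 bp over which HMGB2 was called without interruption in untreated neonatal rat ventricular myocytes. They were chosen by their width in the basal peak list, taken as end minus start on chromosomes 1 to 20, and sorted by the number of phenylephrine peaks that overlap them by at least 1 bp. There were 4877 such domains among 42482 basal peaks of these chromosomes, 11.5% of the peaks and 24.0% of the bases inside basal peaks (13.3 of 55.4 Mb). Of these domains, 2668 held 0 phenylephrine peaks, 2048 held 1 and 161 held 2 or more.

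The series profiled HMGB2 by chromatin immunoprecipitation and sequencing (ChIP-seq) in primary ventricular myocytes of Sprague Dawley rat pups aged 1 day. The basal group is 1 library of untreated cells and the phenylephrine group 1 library of cells given 10 µM of this agonist for 48 h. No genetic change is named for either group, and all cells were plated for 24 h in serum and then moved to insulin-transferrin-selenium medium. The labels do not say how many pups or cultures gave each library, nor how long the untreated cells were kept.

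HMGB2 belongs to the high mobility group box proteins, which bind the minor groove of DNA with little sequence preference and bend it. Such proteins change how chromatin folds and how easily other factors reach it, and they exchange quickly on chromatin. Phenylephrine activates alpha-adrenergic receptors and drives hypertrophic growth of cultured neonatal myocytes, a standard cell model of cardiac hypertrophy. A peak caller reports a domain where reads stay above a local background, so the edge of a domain is the place where the signal met that caller's limit, not a border seen directly.

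With 1 library per condition there is no replicate, so no test of the treatment was possible, no p-value is given, and every difference is one between 2 libraries. Ranges in parentheses are 95% intervals (Wilson for shares, exact binomial for medians) and cover counting error over peaks only. The read depth behind each peak is unknown. A part of a domain that is not called after phenylephrine may hold HMGB2 in fewer cells, less HMGB2 per cell or fewer reads, and these cannot be told apart. The lists give no expression values, so the identity of the cells was not checked against marker genes. Genes, annotation and sequence at the domains are not used here, because the reference tables at hand belong to another genome build than rn4, the build of the peaks. Starts are printed with 1 added, as in a genome browser.

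The domains had a median width of 2455 bp (2435 to 2478). The middle 50% spanned 2180 to 2962 bp, 95% were at most 4408 bp wide, and the widest reached 8161 bp. Their median basal score, the significance score that the authors deposited for each peak, was 154 (150.2 to 159), against 72.7 (72.3 to 73.1) for the 37605 narrower basal peaks. The score has no stated scale and was used only to rank peaks within 1 list. Width is a continuum and the 2000 bp limit cuts through it. The peak just outside, on chromosome 13 at 39832190 to 39834188, was 1999 bp wide, scored 363 and held 1 phenylephrine peak over 45.9% of its length. The domain just inside, on chromosome 5 at 108199630 to 108201629, was 2000 bp wide, scored 480 (479.78) and held 1 phenylephrine peak over 23.7% of its length. Of peaks from 1900 to under 2000 bp, 36.2% (33.0 to 39.5%) were overlapped, and of those from 2000 to under 2100 bp, 37.6% (34.2 to 41.2%).

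Most domains held no phenylephrine peak, and those that did nearly always held a single one. A phenylephrine peak overlapped 2209 domains, 45.3% (43.9 to 46.7%), against a background of 19.7% of all basal peaks and 16.4% (16.0 to 16.8%) of the narrower ones. The share with 0 was 54.7% (53.3 to 56.1%), the share with 1 was 42.0% (40.6 to 43.4%) and the share with 2 or more was 3.30% (2.84 to 3.84%), the last against a background of 0.711% of all basal peaks. Of the 161 domains with 2 or more, 158 held exactly 2 and 3 held 3. The rule used the overlap itself, so these counts describe the lists. They rest largely on phenylephrine peaks scoring under 100: when only those scoring at least 100 were counted, the share with 0 was 88.8%. That limit kept 7.24% of all phenylephrine peaks and 23.1% of those on the domains, so the latter were high-scoring for their list. The majority with 0 did not hold at every setting. That share was 45.6% of domains at least 3000 bp wide and 48.8% of domains with basal scores of at least 100.

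A wider basal peak offers more bases to meet, so the overlap was also counted per kb and in a window of fixed size. The count per kb includes phenylephrine peaks that only cross an edge, which by itself gives narrower basal peaks higher values. Its order by width is therefore not read as a preference. Per kb of basal peak, the domains held 0.179 phenylephrine peaks and all narrower peaks 0.1496, but the nearest narrower class, 1500 to under 2000 bp, held 0.192. At like basal scores from 75 upward the order turned, for example with 0.263 per kb in domains from 2000 to under 3000 bp and 0.321 in peaks from 1000 to under 2000 bp at scores of 200 to under 300. At 50 to under 75 it did not, with 0.0993 and 0.0945. In the central 600 bp of each peak, 34.8% (33.5 to 36.1%) of domains and 15.0% (14.6 to 15.3%) of narrower peaks met a phenylephrine peak. Over whole peaks, the share overlapped increased from 6.67% (6.02 to 7.39%) of basal peaks under 750 bp to 31.5% (30.4 to 32.7%) of those from 1500 to under 2000 bp. Among the domains it went on from 40.0% (38.1 to 41.9%) at 2000 to under 2500 bp to 60.9% (55.7 to 65.9%) at 4000 bp and more. The central 600 bp behaved otherwise: their share was 33.2% (31.4 to 35.1%), 36.9% (34.1 to 39.8%), 35.9% (32.7 to 39.3%) and 37.0% (32.1 to 42.3%) in the 4 width classes of domains, with intervals that overlap. The number of phenylephrine peaks per kb was lower in the widest domains, 0.193 at 2000 to under 2500 bp and 0.135 at 4000 bp and more. The share of bases covered went the other way, 16.4% and 19.5% in these 2 classes.

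**Figure D1:**
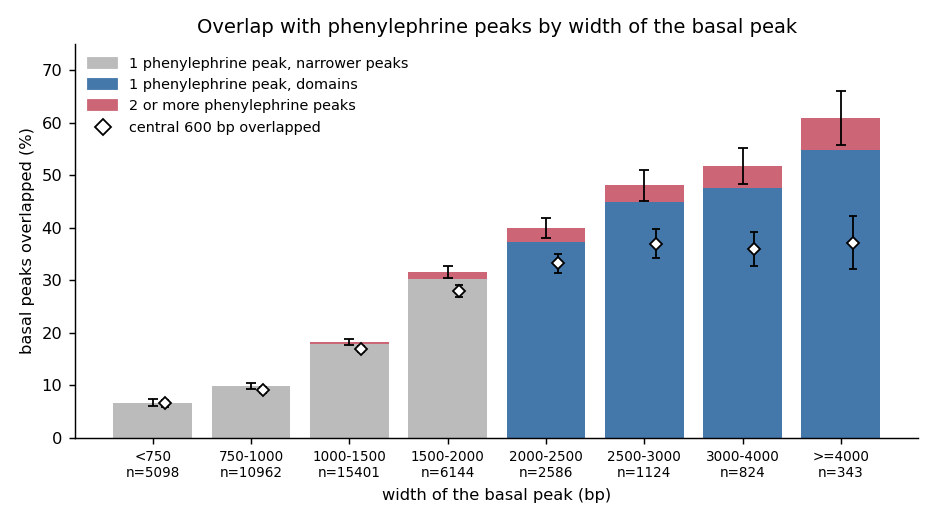
Percent of basal peaks overlapped by a phenylephrine peak (y axis) in 8 classes of basal width in bp (x axis). Bars give the share with 1 peak (grey below 2000 bp, blue for domains) and with 2 or more (red), diamonds the share whose central 600 bp were met, and error bars Wilson 95% intervals; the bars reach 60.9% in the widest class while the diamonds stay between 33.2% and 37.0% over the domains.

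Domains with a phenylephrine peak had higher basal scores than empty ones, and were slightly wider. The median basal score was 126 (123 to 131) in domains with 0 phenylephrine peaks, 193 (186 to 198) in those with 1 and 233 (220.4 to 270.4) in those with 2 or more. Their median widths were 2394 bp (2368 to 2415), 2540 bp (2508 to 2578) and 2597 bp (2458 to 2733). The ranges of score overlapped widely between these groups: the middle 50% ran from 85.3 to 193 with 0 peaks, from 124 to 275 with 1 and from 159 to 345 with 2 or more. When the domains were cut into 4 equal parts by score, 28.1% (25.7 to 30.7%) of the lowest part were overlapped, then 34.9% (32.2 to 37.6%), 52.3% (49.4 to 55.0%) and 66.0% (63.2 to 68.6%) of the highest. The share with 2 or more went from 1.07% (0.624 to 1.81%) to 6.48% (5.23 to 8.004%) over the same parts. The median width of these parts went only from 2408 to 2524 bp.

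At like basal scores of 200 and more, the centres of domains and of basal peaks from 1000 to under 2000 bp met phenylephrine peaks at shares whose intervals overlap. In the band of scores from 200 to under 300, the central 600 bp were met in 47.7% (44.2 to 51.3%) of domains from 2000 to under 3000 bp and in 45.1% (39.4 to 50.9%) of domains of 3000 bp and more. The value for basal peaks from 1000 to under 2000 bp was 44.9% (42.4 to 47.4%). At scores of 300 and more the 3 values were 60.4% (56.0 to 64.6%), 60.8% (53.0 to 68.0%) and 61.2% (57.5 to 64.7%). At the lowest scores, 50 to under 75, the intervals lay apart, with 16.3% (13.3 to 19.8%) and 19.0% (13.3 to 26.4%) for the domains and 10.1% (9.45 to 10.8%) for the narrower peaks. They also lay apart at 100 to under 150 for domains of 3000 bp and more, with 30.7% (25.4 to 36.6%) against 22.7% (21.5 to 24.0%). In the other comparisons at scores from 75 to under 200 the intervals of domains and narrower peaks overlapped. Over the whole peak, domains of 3000 bp and more exceeded peaks from 1000 to under 2000 bp at every score band, for example 38.7% (30.9 to 47.0%) against 11.7% (11.004 to 12.4%) at scores of 50 to under 75.

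**Figure D2:**
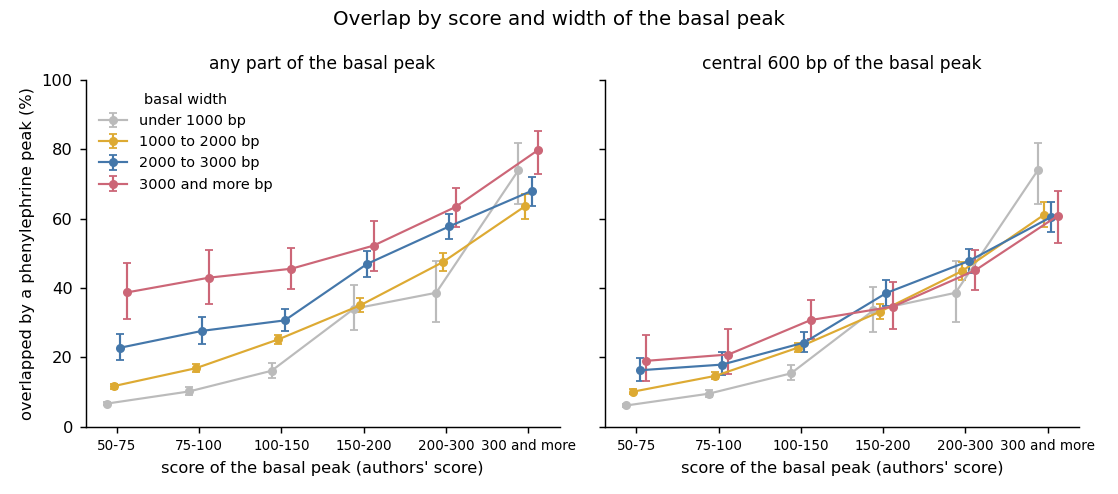
Percent of basal peaks overlapped by a phenylephrine peak (y axis) by band of the authors' basal score (x axis) and by basal width (colours), for the whole peak on the left and its central 600 bp on the right; error bars are Wilson 95% intervals. On the left the lines for wider peaks lie higher in most bands, and on the right the lines for 1000 bp and more lie close together at scores of 200 and more, such as 47.7%, 45.1% and 44.9% at 200 to under 300.

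Even where a phenylephrine peak was present, it mostly took up a minor part of the domain. Domains were chosen by width, and a peak of given width covers less of a wider domain. The median width was 585 bp over all phenylephrine peaks and 1113 bp over all basal peaks. Cover was also partial in overlapped narrower basal peaks, with a median of 50.7%. It was 43.2% in those from 1500 to under 2000 bp and 34.2% in overlapped domains. Over all domains, phenylephrine peaks covered 2.30 of 13.3 Mb, 17.3% of the bases, against 9.60% of the bases of all narrower basal peaks and 14.5% of those from 1500 to under 2000 bp. The narrower peaks also scored lower. At scores of 200 to under 300, 23.0% of the bases of domains from 2000 to under 3000 bp were covered and 24.5% of those of peaks from 1000 to under 2000 bp, and at 300 and more the values were 31.9% and 34.1%. At 150 to under 200 they were 18.3% and 18.0%, and at 50 to under 75 the domains were higher, with 7.32% and 5.51%. Domains with 0 peaks made up 53.0% of all domain bases, and within the overlapped domains 36.8% of bases were covered. The median covered part was 33.2% (32.2 to 33.9%) of the domain with 1 peak, the middle 50% lying between 24.3 and 45.9%. With 2 or more it was 53.6% (50.2 to 58.0%), with the middle 50% between 42.7 and 64.7%. At least 50% of the domain was covered in 400 of 2048 domains with 1 peak (19.5%, 17.9 to 21.3%) and in 95 of 161 with 2 or more (59.0%, 51.3 to 66.3%). Only 59 of the 2209 overlapped domains, 2.67% (2.08 to 3.43%), were covered over 80% or more, and 3 were covered whole. At the other end, 40 domains, all with 1 peak, were covered over less than 10%.

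The phenylephrine peaks on the domains were wide for their own list but narrow beside domains that were chosen for their width. The median width of these peaks was 875 bp (857 to 897), against 585 bp over their whole list. It was 669 bp (662 to 676) for those on narrower basal peaks and 565 bp (564 to 567) for those on no basal peak. Their scores were higher too: 23.1% (21.4 to 24.8%) scored at least 100, against 18.3% (17.3 to 19.3%) and 3.996% (3.79 to 4.21%). The median domain was 3.04 times (2.97 to 3.11) as wide as the phenylephrine peak on it, and in 20 of the 2373 pairs the phenylephrine peak was the wider one. In domains with 1 peak, the median width of that peak was 844 bp (811 to 869) where the domain was under 2500 bp and 1278 bp (1143 to 1466) where it was 4000 bp and more. The covered part was nevertheless smaller in the widest class, 25.4% (22.8 to 28.4%) against 36.2% (35.0 to 38.0%).

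Most phenylephrine peaks lay wholly inside the domains, which their smaller width itself favours, and few crossed an edge. Of the 2373 pairs, 1994 (84.0%, 82.5 to 85.4%) had the phenylephrine peak wholly inside the domain, 207 crossed the left edge, 169 crossed the right edge and 3 spanned the domain. Left and right are those of the chromosome, not of a gene. The midpoint of the phenylephrine peak lay a median of 448 bp (434 to 471) from the domain centre, or 34.0% (32.5 to 35.5%) of the way from the centre to the edge. In domains with 1 peak, 32.2% (30.2 to 34.3%) of midpoints fell in the middle 20% of the domain, while 8.50% (7.36 to 9.78%) fell in the leftmost 20% and 7.03% (6.003 to 8.22%) in the rightmost 20%. Both sides were used alike, with 49.2% (47.1 to 51.4%) of midpoints left of the centre.

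A peak of some width that lies inside a domain cannot have its midpoint near the edge, so its size alone favours the middle. For the 1726 single peaks wholly inside, the free space was therefore taken as the domain width minus the peak width, and the start was placed on it from 0% (at the left edge) to 100% (at the right edge). The shares in the 5 equal parts of this space were 16.6% (14.9 to 18.4%), 21.1% (19.3 to 23.1%), 21.9% (20.0 to 23.9%), 22.2% (20.3 to 24.2%) and 18.2% (16.4 to 20.1%). Both outermost parts were thus lower than the 3 inner ones, by a small margin.

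**Figure D3:**
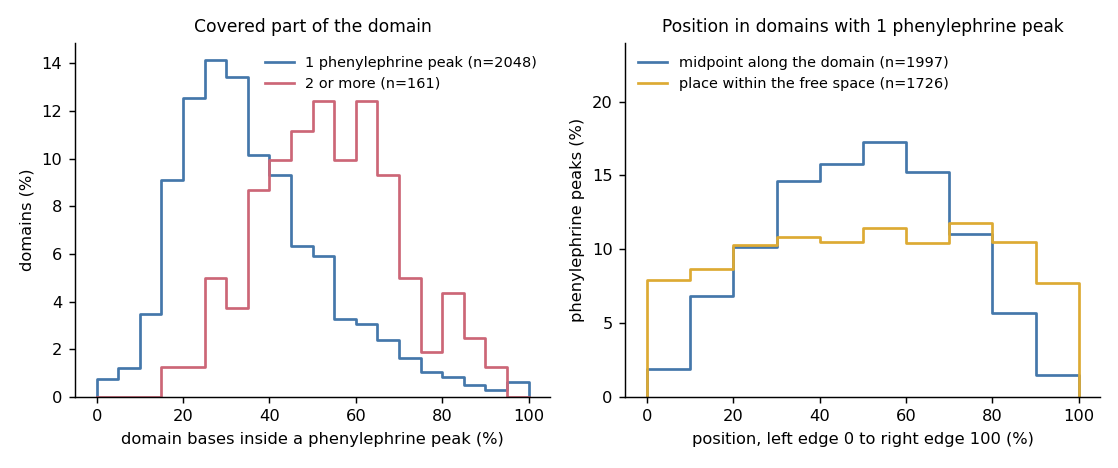
Left, percent of domains (y axis) by percent of the domain's bases inside phenylephrine peaks (x axis), for 2048 domains with 1 peak (blue) and 161 with 2 or more (red); the medians are 33.2% and 53.6%. Right, percent of phenylephrine peaks (y axis) by position from the left edge (0) to the right edge (100) in domains with 1 peak; the midpoints inside the domain (blue) pile up in the middle, with 32.2% of all midpoints in the middle 20% of the width, while the place of the 1726 inside peaks within their free space (yellow) is nearly flat.

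Beyond the edges of the domain, phenylephrine peaks were scarcer than inside it. The share of the whole genome inside phenylephrine peaks was not computed. A position just left of the middle of the domain (45% of its width) lay in a phenylephrine peak in 24.5% (23.3 to 25.7%) of domains, and one just right of it (55%) in 25.1% (23.9 to 26.3%). At 5% of the width inside the left and right edges the shares were 7.01% (6.33 to 7.76%) and 6.40% (5.74 to 7.12%). At 5% outside they were 2.85% (2.42 to 3.36%) and 2.21% (1.84 to 2.67%), and at 95% outside 1.64% (1.32 to 2.04%) and 1.74% (1.41 to 2.15%). The width of this profile followed the width of the basal domain. At 1.5 kb left of the centre, 2.24% of domains from 2000 to under 2500 bp had a phenylephrine peak, a position outside the basal domain. The value there was 18.1% for domains of 4000 bp and more, in which that position lies inside the domain.

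**Figure D4:**
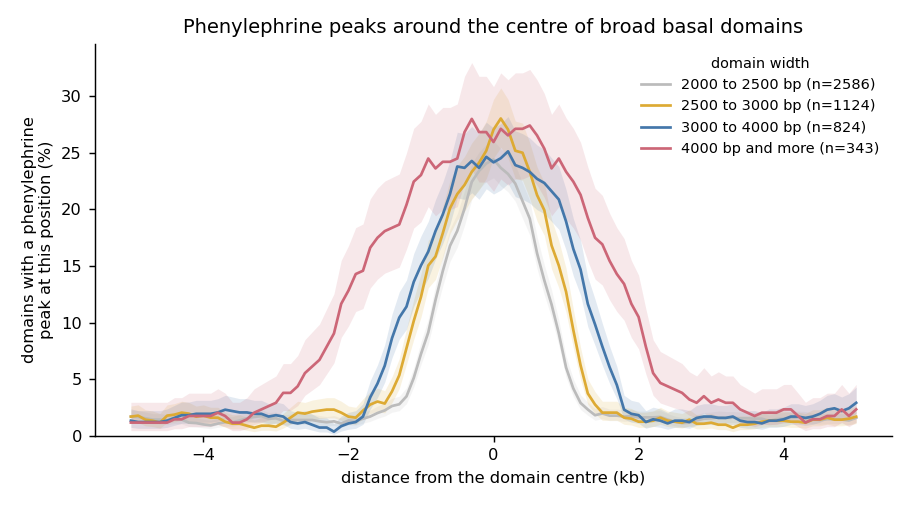
Percent of domains with a phenylephrine peak at each position (y axis) by distance from the domain centre in kb (x axis), for 4 classes of domain width; shading gives Wilson 95% intervals. The curves reach like heights at the centre, 24.4% for the narrowest and 25.9% for the widest class, and the curve of the widest class is the broadest, with 18.1% at 1.5 kb left of the centre against 2.24% for the narrowest.

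Where 2 or more phenylephrine peaks lay on a domain, they were narrower than single peaks, and most gaps were under 500 bp. Pieces of a domain must fit on it side by side, which by itself favours narrower pieces and limits the gaps. The widths and gaps are therefore not read as a preferred form. The median piece was still wider than the median of 585 bp over all phenylephrine peaks. The 325 pieces on the 161 fragmented domains had a median width of 728 bp (675 to 754), against 909 bp (885 to 932) for single peaks, and a median score of 64.1 (61.9 to 66.8), against 74.4 (72.7 to 76.0). The gap between neighbouring pieces had a median of 247 bp (199 to 356) over 164 gaps. It was under 500 bp, the length to which the chromatin was sheared, in 110 gaps (67.1%, 59.6 to 73.8%), under 100 bp in 41, and at least 1000 bp in 20 (12.2%, 8.03 to 18.1%). When phenylephrine peaks within 500 bp of each other were merged first, 1.09% (0.832 to 1.42%) of domains held 2 or more instead of 3.30%, so most of the fragmentation rests on such short gaps. Whether a short gap marks a place without HMGB2 was not tested.

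The pieces of fragmented domains usually had midpoints on both sides of the centre. Pieces of a domain do not overlap, so their widths alone push the midpoints apart and favour opposite sides. The values that freely placed pieces would give were not computed. The sides, midpoints and span of the pieces are therefore not read as a preferred arrangement. In 129 of 161 domains (80.1%, 73.3 to 85.6%) the first and last pieces had their midpoints on opposite sides. The first midpoint lay at a median of 26.8% (22.1 to 29.9%) of the domain width and the last at 74.4% (70.3 to 76.8%). From the start of the first to the end of the last piece they spanned a median of 73.6% (70.9 to 76.8%) of the domain width. The wider piece was a median of 1.37 times (1.28 to 1.44) as wide as the narrowest one of the same domain. The ratio between pieces of different domains was not computed, so whether pieces of a domain were more alike in width was not tested. All pieces lay wholly inside in 108 of the 161 domains.

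The 3 domains with 3 pieces lay on chromosomes 20, 1 and 2. The domain on chromosome 20 at 38388281 to 38391789, with a basal score of 613, carried pieces of 510, 443 and 559 bp over 43.1% of its 3509 bp, and the first piece stood apart from the other pair. On chromosome 1 at 44372933 to 44375510 (score 387) the pieces of 617, 560 and 522 bp were nearly evenly spaced, with midpoints at 18.6%, 49.2% and 79.7% of the width, and covered 65.9%. This domain was isolated, with 149.7 kb to the next basal peak. On chromosome 2 at 46549116 to 46552211 (score 296) the pieces of 582, 551 and 703 bp covered 59.3%.

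The 3 highest-scoring fragmented domains each carried 2 pieces that together covered 58.5 to 88.0% of the width. On chromosome 16 at 31191696 to 31193961, with a basal score of 1908, pieces of 1088 and 776 bp covered 82.3%, and the first began 7 bp inside the left edge. A second domain of chromosome 16, at 21357031 to 21359694 (score 1882), carried pieces of 1267 and 1078 bp over 88.0%, and its first piece began at the same base as the domain. On chromosome 9 at 1161214 to 1163411 (score 1160) pieces of 879 and 407 bp covered 58.5%. In the 5 widest fragmented domains the pieces covered 16.2 to 44.9%. The widest, 6669 bp on chromosome 12 at 17807911 to 17814579 (score 61.6), held pieces of 666 and 893 bp over 23.4%. The next, 6230 bp on chromosome 16 at 8190572 to 8196801 (score 78.6), held pieces of 461 and 547 bp over 16.2%. On chromosome 10 at 16605199 to 16610909 (score 68.6), pieces of 601 and 346 bp covered 16.6% of 5711 bp. The fourth, on chromosome 16 at 19330184 to 19335772 (score 253), held 834 and 754 bp, both left of its centre, over 28.4% of 5589 bp. The last, on chromosome 2 at 220252228 to 220257366 (score 188), held 1485 and 874 bp over 44.9% of 5139 bp, the second piece reaching 50 bp past the right edge.

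Among domains with 1 phenylephrine peak, the widest one of all was an exception to the small covered part. It spanned 8161 bp on chromosome 12 at 12045651 to 12053811 (basal score 292), and its phenylephrine peak of 5536 bp (score 826 in its own list) lay at the centre and covered 67.8%. The next 4 were covered over 18.0 to 25.9%. They were 7567 bp on chromosome 20 at 6566661 to 6574227 (score 105) with a peak of 1364 bp, and 7269 bp on chromosome 5 at 60034832 to 60042100 (score 87.4) with a peak of 1644 bp. The other pair were 7243 bp on chromosome 1 at 201658226 to 201665468 (score 87.2) with a peak of 1874 bp, and 7139 bp on chromosome 4 at 56310608 to 56317746 (score 88.5) with a peak of 1466 bp. On chromosomes 1 and 4 the peak lay near the centre, at 50.2% and 54.4% of the width, and on chromosome 5 in the left part, at 25.5%.

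In the 3 named domains with 1 peak and the highest basal scores, that peak began within 30 bp of the domain's left edge. The domain with the highest listed score lay on chromosome 8 at 104423716 to 104426086 (score 3174). Its phenylephrine peak began 29 bp inside the left edge and ended 888 bp before the right edge, covering 61.3%. Of the 3 domains tied at 3100, the widest was on chromosome 4 at 75900436 to 75903895, where a peak of 3437 bp began 30 bp inside the left edge, ended 7 bp past the right edge and covered 99.1% of 3460 bp. On chromosome 2 at 61088770 to 61091049, also at 3100, the peak began 19 bp inside the left edge and covered 82.8%. Both last peaks also scored 3100 in the phenylephrine list. Scores are not comparable between the lists, so this shared value is not read as equal strength. Why exactly 3100 recurs in both lists was not tested. The order of the domains at 3100 and the one at 3174 is therefore not read as an order of strength.

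The edges were compared in all domains with 1 peak after these named ones had been seen. Without those 3, an edge of the phenylephrine peak lay within 50 bp of the same edge of the domain in 5 of the 14 domains scoring at least 1000 (35.7%, 16.3 to 61.2%). With them the count was 8 of 17 (47.1%, 26.2 to 69.0%). The share was 10.2% (7.46 to 13.8%) of the 353 domains with 1 peak scoring under 100 and 7.83% (5.88 to 10.3%) of the 562 at 200 to under 300. The covered part was also larger at the highest scores, and its part in the closeness of edges was not tested. All 21 domains scoring at least 1000 were overlapped, 4 of them by 2 peaks, and the median covered part of the 17 with 1 peak was 76.2% (61.3 to 94.4%). At scores from 300 to under 500 the covered part was 38.3% (36.1 to 40.2%), and under 100 it was 28.1% (26.5 to 29.5%).

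The 3 domains covered whole each lay inside a slightly wider phenylephrine peak. They were on chromosome 1 at 208427697 to 208430943 (3247 bp, basal score 1963, phenylephrine peak 3288 bp) and on chromosome 13 at 72671611 to 72673613 (2003 bp, score 271, peak 2313 bp). The remaining one was on chromosome 7 at 11230621 to 11233168 (2548 bp, score 195, peak 2653 bp). The 3 domains covered least were touched only at an edge, by 4 bp on chromosome 8 at 71119370 to 71122296, by 9 bp on chromosome 16 at 36321223 to 36323837 and by 10 bp on chromosome 7 at 138138988 to 138141004. In these 3 the phenylephrine peak lay almost wholly outside the domain, so their count of 1 peak rests on the rule of 1 bp.

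Domains without a phenylephrine peak were not simply beside one. The nearest phenylephrine peak was a median of 11.2 kb (10.6 to 11.8) away, against 12.9 kb (12.7 to 13.1) for narrower basal peaks without one. It lay within 1000 bp of 5.58% (4.78 to 6.52%) of these domains and within 10 kb of 45.7% (43.8 to 47.5%), and beyond 50 kb of 5.02% (4.26 to 5.92%). The widest were broad, low-scoring stretches. They spanned 7970 bp on chromosome 16 at 10241606 to 10249575 (score 67.6, nearest phenylephrine peak 13.4 kb away) and 7388 bp on chromosome 8 at 124998172 to 125005559 (score 60.5, 2.61 kb away). The third was 7015 bp on chromosome 6 at 6554236 to 6561250 (score 97.0, 21.6 kb away). Then came 6826 bp on chromosome 19 at 54836142 to 54842967 (score 95.4, 5.55 kb away) and 6825 bp on chromosome 13 at 86956498 to 86963322 (score 103, 19.8 kb away).

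Some empty domains were among the stronger basal peaks. The highest score, 804 at rank 114 of the basal peaks, belonged to a domain of 3723 bp on chromosome 17 at 4282364 to 4286086, 20.1 kb from a phenylephrine peak and 0.10 kb from another basal peak. Next was a domain of 2530 bp on chromosome 16 at 21596806 to 21599335 (score 741, rank 126), only 0.548 kb from a phenylephrine peak. The third spanned 2671 bp on chromosome 7 at 54654747 to 54657417 (score 652, rank 147), 21.9 kb from one.

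**Figure D5:**
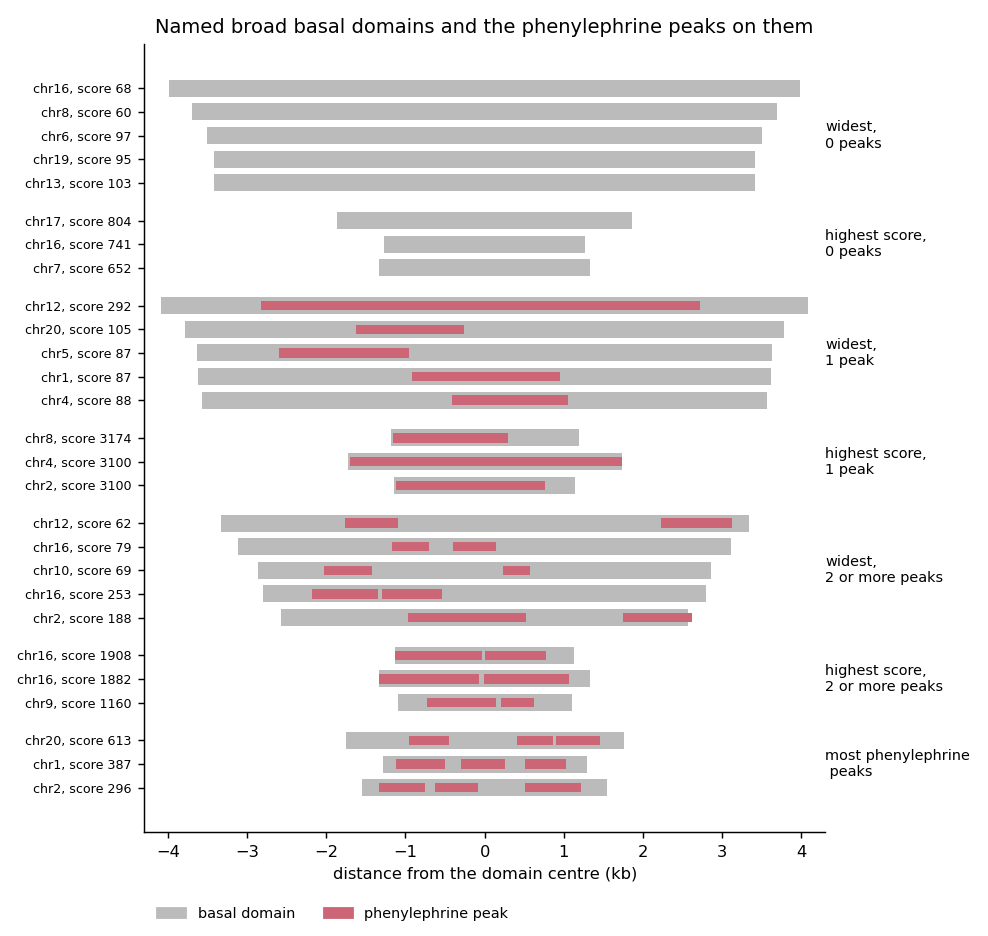
Named domains (grey) with their phenylephrine peaks (red), drawn to scale by distance from the domain centre in kb (x axis); each line is 1 domain with its chromosome and basal score (y axis), grouped by the number of peaks and by width or score. The widest domains with peaks carry pieces that are short beside the domain, apart from the one on chromosome 12 with 5536 bp covered. The highest-scoring domains with peaks are filled over 58.5 to 99.1% of their width.

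Seen from the phenylephrine list, the domains held 2373 of its 41551 peaks, 5.71%, while 20.8% of its peaks overlapped a basal peak of any width. Each of the 2373 touched a single domain, and 4 of them also touched another basal peak. Broad phenylephrine peaks lay mostly on broad basal domains. Of the 156 phenylephrine peaks of at least 2000 bp, 113 lay on a broad basal domain, 15 on a narrower basal peak only and 28 on no basal peak. Those 113 domains were 2.32% (1.93 to 2.78%) of the 4877, so 97.7% had no phenylephrine peak of that breadth. Only 0.375% of all phenylephrine peaks were that broad, against 11.5% of basal peaks, so few domains could have held one.

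The domains were spread over all 20 chromosomes, and the share with a phenylephrine peak differed little between most of them. Broad peaks made up 9.38% of basal peaks on chromosome 15 and 15.0% on chromosome 10, the lowest and highest values. The overlapped share was highest on chromosome 2, 54.1% (48.5 to 59.6%) of 307 domains, and lowest on chromosome 3, 36.8% (32.1 to 41.8%) of 372. On the other 18 chromosomes the interval overlapped that of all domains. The basal score moved with this result, with a median of 190 (190.1) on chromosome 2 and 137 on chromosome 3, and its part in it was not tested.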

How the data were processed

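HMGB2 ChIP-seq peaks of 2 libraries were analysed, 1 of basal and 1 of phenylephrine-treated rat myocytes. Per the labels' protocols, cells were fixed in 1% formaldehyde for 10 min, and chromatin was sheared to 500 bp, precipitated with an antibody to HMGB2 and sequenced from both ends. Bowtie 0.12.7, MACS 1.4.1 and the build rn4 are named in the submitters' processing notes. Per the file headers, each deposited list is a bedGraph track with 4 columns, the last a score per peak that the authors gave without a scale. The score starts at 50 in both lists. No header or label used here states a control library or a calling threshold.

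Peaks on chromosomes 1 to 20 were kept (42482 basal, 41551 phenylephrine) and overlapped with Python 3.11.15, pandas 2.3.3, numpy 2.4.6 and scipy 1.17.1. Figures used matplotlib 3.10.9. Overlap counts equalled those of bedtools 2.31.1. The code was tested on simulated data, recovering the planted number of pieces and covered bases in 4877 of 4877 domains. The lowest start in the files is 1, so printed starts may be 1 bp too high.

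The members, measures and named regions were chosen with earlier results of these data known. Named are the 5 widest and 3 highest-scoring domains with 0, 1 and 2 or more peaks, the 3 with most peaks, the 3 covered most and least, and the peaks at the width limit. Ties went to the higher basal score, then the wider peak. The alternatives were other widths, overlap rules, scores, merged or resized peaks, and added sequence.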

Additional observations from a re-analysis of the deposited data

How the results depend on the processing

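No paired analysis was possible because there is only 1 library of each kind, so none was left out either. The read depth is unknown and scores are not comparable between the lists, which limits every value. The central 600 bp of domains were tried after seeing the data. Each setting changes the lists by its own construction, and no other cause of a shift was tested.

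A width of at least 1500 bp gave 11021 domains, 62.4% with 0, 35.4% with 1 and 2.20% with 2 or more phenylephrine peaks, 38.7% median cover and 77.8% of peaks inside. A width of at least 3000 bp gave 1167 domains, 45.6%, 49.7% and 4.71%, 29.0% cover, midpoints 36.0% of the way to the edge and 89.3% inside. Basal scores of at least 100 gave 48.8%, 47.1%, 4.06% and 35.7% cover. Phenylephrine scores of at least 100 gave 88.8%, 11.1%, 0.0615%, 48.1% cover, midpoints at 26.2% and 82.5% inside. Merging basal peaks within 1 kb gave 40.5% with 1, 3.85% with 2 or more, 32.4% cover and midpoints at 37.7%. Merging phenylephrine peaks within 500 bp gave 44.2% with 1 and 1.09% with 2 or more. Setting phenylephrine peaks to 600 bp gave 23.7% cover and 92.5% inside. Asking for 50% of the phenylephrine peak, or its midpoint, inside the domain gave 86.3% inside under both rules. By the central 600 bp, 65.2% of domains held 0, and 15.0% of narrower peaks were met. Of 67 values under alternatives, 32 stayed within the interval of the reported value, or for counts within 1.5 times.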

Other observations

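Domains of extreme basal score were frequent on chromosome 16. It held 7 of the 21 domains scoring at least 1000, 33.3% (17.2 to 54.6%), and 17 of the 108 scoring at least 500, 15.7% (10.1 to 23.8%), but 172 of all 4877 domains, 3.53%. The chromosome was singled out after the values were seen. Of the 7, the domains at 20556037 to 20558428 and 20576624 to 20579496 scored 1520 (1520.06) and 2948 and were covered over 67.5% and 64.5%. Those at 31163931 to 31167386 and 31191696 to 31193961 scored 1139 and 1908 and were covered over 50.7% and 82.3%. The remaining 3 lay at 14085670 to 14090802, 21357031 to 21359694 and 21609631 to 21613117, with 68.2%, 88.0% and 40.3% covered. Chromosome 16 also had the highest share of domains with 2 or more phenylephrine peaks, 8.14% (4.91 to 13.2%), against 3.30% of all domains. This was not particular to it: the shares were 6.98% (4.04 to 11.8%) on chromosome 17 and 6.19% (3.998 to 9.46%) on chromosome 2, with intervals that overlap.

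Most broad basal domains had no other broad domain nearby, but basal peaks of any width were often near. No other domain lay within 10 kb of 83.8% (82.8 to 84.8%) of the domains, and 45.9% (44.4 to 47.5%) of these held a phenylephrine peak. Another basal peak lay within 10 kb of 55.2% of domains with 0 phenylephrine peaks, 49.8% with 1 and 46.0% with 2 or more. The share that an even spread along the genome would give was not computed. Where the nearest domain within 10 kb held a phenylephrine peak, 44.6% (39.4 to 50.1%) of 327 domains held one too, and where it held none, 40.1% (35.8 to 44.7%) of 461 did. These intervals overlap, and 2 neighbours can each count the other. Domains in sparse surroundings were overlapped more often. With 0 or 1 other basal peaks in the 50 kb to either side, 52.3% (48.6 to 55.9%) of 706 domains held a phenylephrine peak, and with 6 or more, 42.6% (39.7 to 45.6%) of 1077 did. The median basal score was 206 in the former and 132 in the latter, and its part in the difference was not tested.

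Outside chromosomes 1 to 20 there were few domains. Chromosome X had 24, of which 12 (50.0%, 31.4 to 68.6%) held a phenylephrine peak and 3 held 2 or more. Unplaced sequence had 90, of which 56 (62.2%, 51.9 to 71.5%) held one and 8 held 2 or more, with a median basal score of 274.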
